A study of Mus musculus with 4 samples.

Results

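The genes described here encode the nuclear lamina, the proteins of the nuclear envelope that bind it, the enzymes that process lamin tails, and part of the nuclear pore complex. They were chosen by gene symbol, as a list of 41 out of the 23732 gene symbols that the transcript IDs of the count files matched, and every gene of the list was found. RNA was measured in imMDFs, mouse dermal fibroblasts that were immortalized, of the *Tmpo* WT and *Tmpo* KO genotypes, whose labelled genotypes are Lap2alpha +/+ and Lap2alpha -/-. The cells had no treatment. Each genotype had 2 libraries of rRNA-depleted total RNA, replicate 1 from passage 34 and replicate 2 from passage 42, so passage differences are part of the spread within a genotype. The knockout came from deletion of exon 4 of *Tmpo*, which takes away LAP2alpha and leaves the other LAP2 proteins. The sources name 1 line per genotype, so the knockout and other differences between the lines cannot be told apart. Nothing in them says that the libraries are from separate cultures beyond the passage number, and a p-value then reflects only how far these libraries spread, which can be technical variation. The question put to these genes was whether the other parts of the lamina, envelope and pore differ in RNA level when LAP2alpha is missing.

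Lamins are intermediate filament proteins that form a meshwork under the inner nuclear membrane. B-type lamins stay anchored there by a lipid on their tail, while A-type lamins also occur in the nuclear interior, where LAP2alpha, a LAP2 protein without a membrane anchor, binds them. Inner membrane proteins such as emerin and the lamin B receptor tie lamina and chromatin together, LINC complexes of SUN and nesprin proteins join the lamina to the cytoskeleton, and pore complexes pierce the envelope for transport.

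The sequences that bear on these counts are the exon that sets LAP2alpha apart and the tails that the lamin-processing enzymes act on. All are from the NCBIM37 genome, the build to which the authors mapped, on the minus strand and 5′ to 3′, with exon boundaries of GENCODE M1. The first pair of lines gives the start of exon 4 of the LAP2alpha transcript at chr10:90625957-90626126 and the alternative exon 4 of the other *Tmpo* transcripts at chr10:90621493-90621610, with intron bases in lower case and exon bases in capitals.
LAP2alpha exon 4 start: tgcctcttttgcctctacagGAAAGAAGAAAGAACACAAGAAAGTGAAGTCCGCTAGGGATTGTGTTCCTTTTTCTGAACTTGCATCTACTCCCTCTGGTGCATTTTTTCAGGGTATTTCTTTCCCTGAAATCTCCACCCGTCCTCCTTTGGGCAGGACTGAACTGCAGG
Exon 4 of the other LAP2 transcripts: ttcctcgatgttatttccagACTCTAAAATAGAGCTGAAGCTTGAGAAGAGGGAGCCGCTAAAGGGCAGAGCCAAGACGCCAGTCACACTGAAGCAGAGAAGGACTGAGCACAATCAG

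The LAP2alpha exon runs from 90623162 to 90626106 on chromosome 10 and holds 2945 of the 3776 bases of its transcript (78.0%). No other of the 7 *Tmpo* transcripts of the annotation uses it, whereas every base of exons 1 to 3 of this transcript is shared. The alternative exon of 98 bases is in the other 6 transcripts.

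The second set of lines gives the last coding bases of *Lmna* and *Lmnb2*, with the last 4 codons in capitals and the stop codon after them. They lie at chr3:88285996-88286022 for lamin A, chr3:88287219-88287266 for lamin C and chr10:80365604-80365645 for lamin B2.
Lamin A end: agctcccagaacTGCAGCATCATGtaa
Lamin C end: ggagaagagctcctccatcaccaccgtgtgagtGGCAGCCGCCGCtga
Lamin B2 end: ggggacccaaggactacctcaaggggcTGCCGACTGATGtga

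The lamin A and lamin B2 ends carry the cysteine codon TGC as the fourth codon before the stop, the position at which farnesyltransferase adds its lipid, and the lamin C end does not. The subunits of that enzyme, *Fnta* and *Fntb*, and the proteases and methyltransferase that act after it are among the members described here.

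Between 12168433 and 19603812 reads per library were given to transcripts, which was 31.4% to 36.7% of the reads in each file. The WT libraries correlated at a Pearson r of 0.985 in log2 CPM, the KO libraries at 0.974 and libraries of different genotype at 0.960 to 0.970, all over transcripts, which are no independent replicates. CPM are counts relative to the reads given to transcripts, expressed per 1000000 reads and scaled by TMM factors. Of 10 fibroblast markers fixed for checking the labelled cell type, all had counts, with summed CPM of 13786 and 12872 in WT and 11577 and 15718 in KO at passages 34 and 42. *Col1a1*, *Col1a2*, *Col3a1* and *Vim* were abundant, while *Lum*, with 1 transcript ID, was sparse (12 to 30 counts). *Pdgfra* (29 to 64 counts) and *Dcn* (69 to 150) were counted through 1 of 2 transcript IDs each. Reads in exons shared by IDs were set aside, so these counts give no level for either gene. *Thy1* was higher in KO, with a log2 fold change of 1.80 (SE 0.268, adjusted p = 0.00469). The 31 markers of other cell types summed to 71.6 and 78.3 CPM in WT and 102 and 71.5 CPM in KO, in the same order. The highest was the melanocyte marker *Tyr*, at 26.3 and 35.0 CPM in WT and 40.1 and 29.9 CPM in KO. The leukocyte marker *Csf1r* had 5.54 and 5.21 CPM in WT and 10.7 and 9.21 CPM in KO. *Cd68*, another leukocyte marker, had no count, but it has 2 transcript IDs, so this gives no level for the gene. In bulk RNA, fewer cells of a type and less RNA per cell cannot be told apart.

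The count files treat each RefSeq transcript ID as a feature of its own, and reads in exons shared by IDs were set aside as ambiguous. Which members could be measured went with their number of IDs. The 41 members had 71 IDs, of which 25 had no count in any library. All 28 members with 1 ID had enough counts to be tested, but only 6 of the 13 members with several IDs did. For each gene the ID with the most counts was used. For the 6 tested members with several IDs, the values below are therefore those of 1 ID and not of the whole gene. They are *Tmpo*, *Lmna*, *Tmem201*, *Syne1*, *Tor1aip2* and *Nup35*. *Ankle2*, *Sun1* and *Sun2*, with 2, 5 and 3 IDs, had no count at all in any library. Of the other 4 untested members, the highest count in a library was 21 for *Banf1*, 57 for *Syne3*, 6 for *Tor1aip1* and 17 for *Icmt*. Over all protein-coding genes of the files, 3.07% of the 16057 with 1 ID were without a count, against 15.6% of those with 2 IDs, 17.0% of those with 3 and 26.9% of those with 4 or more. These zeros of *Sun1* and *Sun2*, the inner membrane side of LINC complexes, therefore give no level for the gene.

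**Figure D1:**
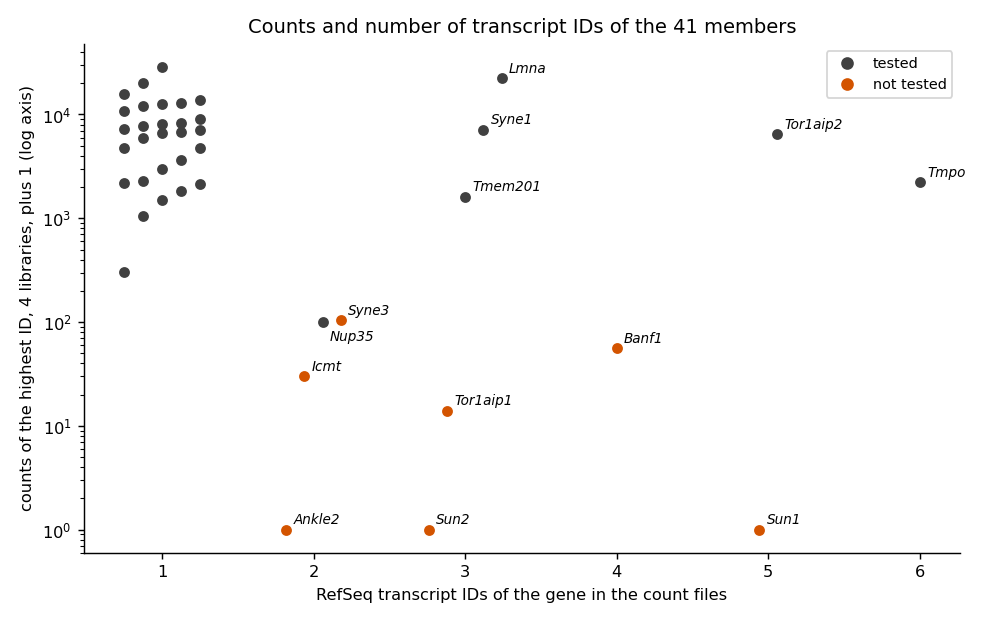
Counts of the highest transcript ID of each of the 41 members, summed over the 4 libraries plus 1 (log axis), against the number of RefSeq transcript IDs of the gene; dark points were tested and orange points were not, and points are shifted sideways to separate them. All 28 members with 1 ID were tested, and *Ankle2*, *Sun1* and *Sun2* sit at the foot of the plot with no count.

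The LAP2alpha transcript of *Tmpo*, NM_011605, checks the labels. It had 903 and 1324 counts in WT at passages 34 and 42, and 6 and 6 in KO. The WT libraries lay far above both KO libraries, at 80.0 ± 5.97 CPM against 0.339 ± 0.0409 CPM (SD, n = 2 each). The log2 fold change was −7.86 (standard error, SE, 0.337, 95% interval −8.60 to −7.11, adjusted p = 1.26e-06), or 232-fold lower in KO. Reads of a deleted exon are missing at any level of transcription, so these counts go with the genotype and do not measure how much *Tmpo* RNA was made. The ID NM_001283048 had WT counts of 9 and 16 and KO counts of 12 and 19. Its counts overlapped between genotypes, and at 0.740 to 1.02 CPM, here without TMM scaling, it was not tested. NM_001080129, NM_001080130, NM_001080131 and NM_001080132, the remaining *Tmpo* IDs, had no count, so the level of the membrane-bound LAP2 proteins' RNA cannot be read from these files. Exons of *Tmpo* overlap those of *Gm17499* on the other strand, and the sources used here do not say whether the counting used strand.

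Of the 34 members tested, *Tmpo* was the only one called by edgeR's quasi-likelihood test at a Benjamini-Hochberg adjusted p under 0.05 over all 13855 transcripts tested, of which 2.75% were called in either direction. Among the other 33 members, 0 were called by this test, by edgeR's exact test or by DESeq2. An unadjusted p under 0.05 was reached by 5 of the 34 members (14.7%), namely *Tmpo*, *Tmem43*, *Fnta*, *Syne2* and *Fntb*, against 12.8% of all transcripts tested. This number was 7 with the replicate number as a block, and it varied with the library left out. No share over all transcripts was computed for these settings. The replicate number also marks the passage, and with it as a block 4 members were called, *Tmpo*, *Tmem43*, *Fnta* and *Syne2*, against 7.88% of all transcripts tested. Without KO replicate 1 the members called were *Tmpo* and *Syne2*, against 5.91% of all transcripts tested under that setting. Without KO replicate 2 they were *Tmpo* and *Fnta*, against 8.52%. Fold changes were positive for 16 members and negative for 18. Their median log2 fold change was −0.027 and their median absolute value 0.18, against 0.016 and 0.25 over all transcripts tested. The members were abundant, with a median of 104 CPM (mean of the 4 libraries) against 14.9 CPM over all tested, and their median SE was 0.211 against 0.311. The 95% interval of the log2 fold change lay wholly between −1 and 1, a change of less than 2-fold in either direction, for 26 members (76.5%) and for 52.3% of all transcripts tested. The genotypes did not overlap for 20 members (58.8%), 9 higher and 11 lower in KO, against 41.9% of all transcripts tested. The KO difference had the same sign at both passages for 24 members (70.6%), against 59.6%.

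**Figure D2:**
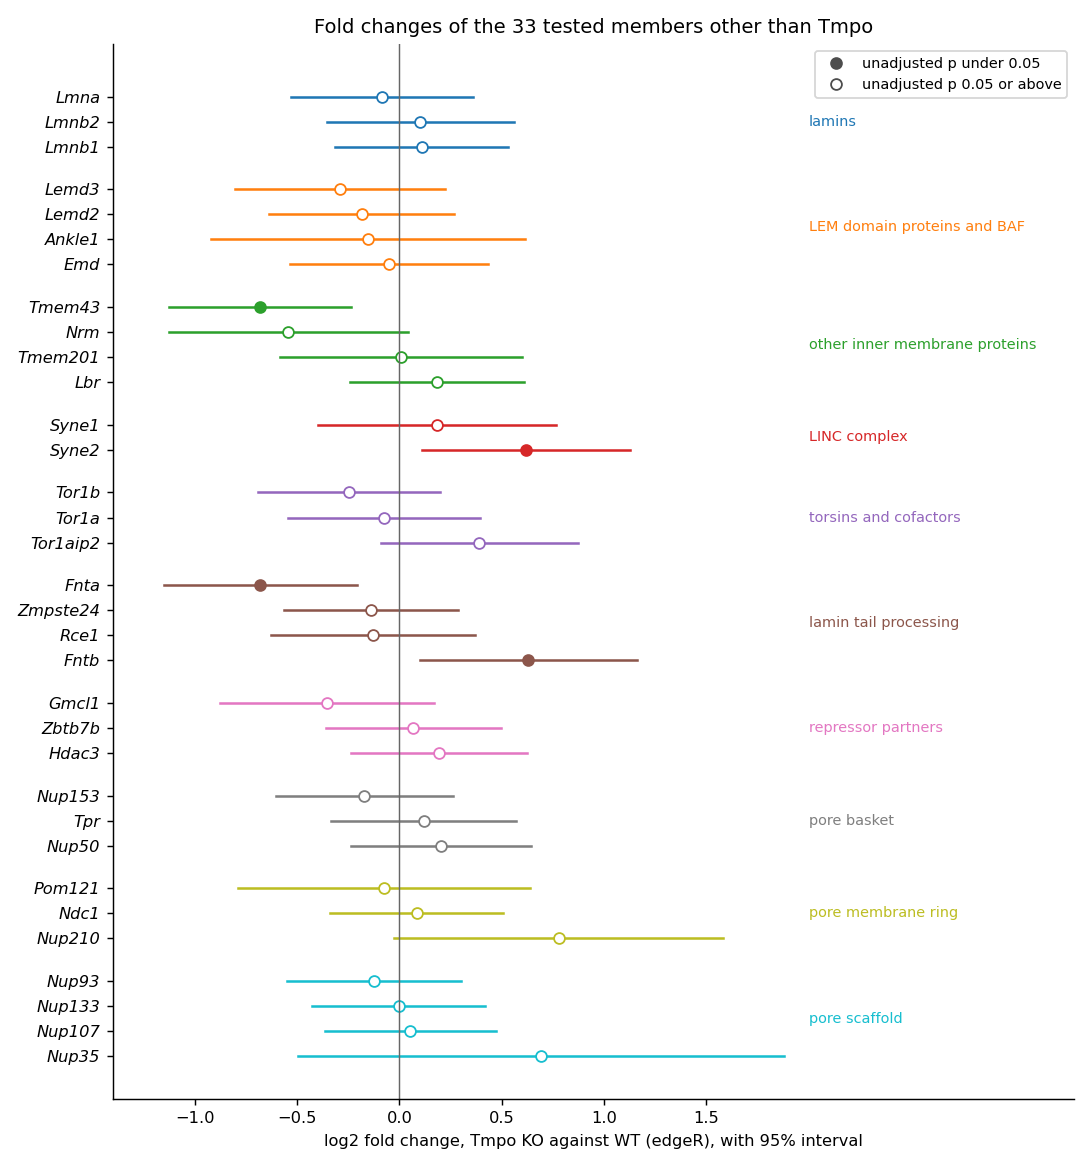
Log2 fold change of *Tmpo* KO against WT with its 95% interval from edgeR for the 33 tested members other than *Tmpo*, grouped by role and ordered by value within a role; filled points have an unadjusted p under 0.05. Values run from −0.68 for *Tmem43* to 0.78 for *Nup210*, 29 of the 33 intervals include 0, and 0 members pass the adjusted threshold.

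Of the 3 lamin genes, with *Lmna* counted through 1 of its 3 IDs, 0 were called or had an unadjusted p under 0.05. Every log2 fold change was within 0.11 of 0. *Lmna*, on chromosome 3 from 88285070 to 88313878, was measured through the ID NM_001002011. It had WT counts of 4298 and 5738 and KO counts of 5097 and 7172 at passages 34 and 42. This is 363 ± 3.06 CPM in WT and 342 ± 41.1 CPM in KO (SD, n = 2 each), and the KO libraries lay on either side of the WT libraries. The log2 fold change was −0.085 (SE 0.202, 95% interval −0.53 to 0.36, adjusted p = 0.933). Of its other IDs, NM_019390 had WT counts of 6 and 4 and KO counts of 12 and 10, and NM_001111102 had none. Reads in exons shared by the 3 IDs were set aside, so the *Lmna* values are those of 1 ID and not of the whole gene. The files do not pair these IDs with lamin A or lamin C, so no level is given for either.

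*Lmnb1*, the gene of lamin B1 on chromosome 18 from 56867467 to 56913078, had WT counts of 1561 and 2279 and KO counts of 2468 and 2826. The KO libraries were both higher, at 149 ± 3.74 CPM against 138 ± 9.88 CPM in WT (SD, n = 2 each), but the log2 fold change was 0.11 (SE 0.192, 95% interval −0.31 to 0.53, adjusted p = 0.902). *Lmnb2*, the gene of lamin B2 on chromosome 10 from 80363948 to 80380990, had WT counts of 671 and 846 and KO counts of 1020 and 1074. Its libraries overlapped between genotypes, at 55.0 ± 1.76 CPM in WT and 59.1 ± 4.98 CPM in KO (SD, n = 2 each), with a log2 fold change of 0.10 (SE 0.208, 95% interval −0.35 to 0.56, adjusted p = 0.922). The ratio of *Lmnb1* to *Lmnb2* CPM was 2.33 and 2.69 in WT and 2.42 and 2.63 in KO, so the KO ratios fell between the WT ratios. For *Lmnb1*, *Lmnb2* and the counted ID of *Lmna*, the interval left room for a difference of up to about 0.5 on the log2 scale.

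**Figure D3:**
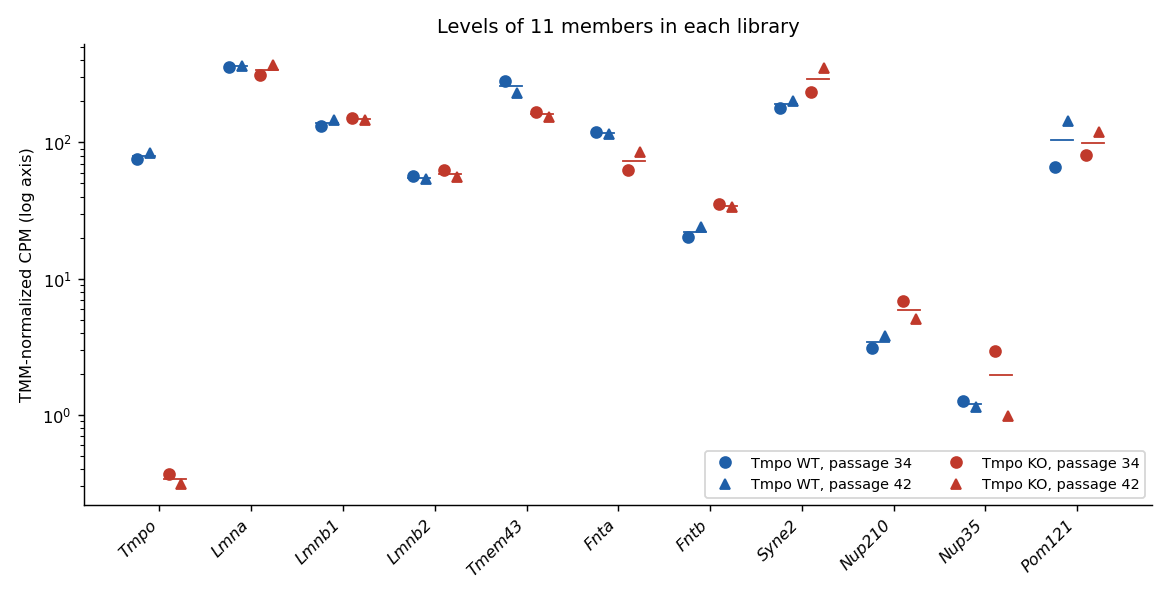
TMM-normalized CPM (log axis) of 11 members, 1 point per library, in blue for WT and red for KO, as circles for passage 34 and triangles for passage 42, and a bar at the mean of the 2 libraries of a genotype. *Tmpo* is at 75.7 and 84.2 CPM in WT and 0.368 and 0.310 CPM in KO, *Lmna* and *Lmnb2* overlap between genotypes, and *Lmnb1*, *Tmem43*, *Fnta*, *Fntb*, *Syne2* and *Nup210* have both KO points on 1 side of both WT points.

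Lamin tails are farnesylated by an enzyme of an alpha subunit, encoded by *Fnta*, and a beta subunit, encoded by *Fntb*. The alpha subunit also serves another prenyltransferase. *Fnta* had WT counts of 1429 and 1812 and KO counts of 1014 and 1633 at passages 34 and 42, which is 118 ± 3.29 CPM in WT and 73.4 ± 15.7 CPM in KO (SD, n = 2 each). Both KO libraries were lower than both WT libraries, with a log2 fold change of −0.68 (SE 0.215, 95% interval −1.15 to −0.21, adjusted p = 0.162). Its unadjusted p was 0.00907. With 1 library left out, the log2 fold change ran from −0.96 without KO replicate 2 (passage 42, adjusted p = 0.0131) to −0.49 without KO replicate 1 (passage 34, adjusted p = 0.427). With the replicate block the adjusted p was 0.00662.

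*Fntb* lay the other way. It had WT counts of 242 and 376 and KO counts of 574 and 643, which is 22.1 ± 2.55 CPM against 34.2 ± 1.39 CPM (SD, n = 2 each). Both KO libraries were higher, with a log2 fold change of 0.63 (SE 0.241, 95% interval 0.10 to 1.16, adjusted p = 0.274). Its unadjusted p was 0.0240. The ratio of *Fntb* to *Fnta* CPM, a measure chosen after these values were seen and therefore not tested, was 0.169 and 0.208 in WT and 0.566 and 0.394 in KO. *Fntb*, on chromosome 12 from 77866576 to 78022399, shares exons on its strand with *Churc1*, which had a log2 fold change of 0.29 (SE 0.246, adjusted p = 0.738). Reads in exons shared by IDs were set aside, and whether the overlap lowers or adds to the *Fntb* count was not tested.

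The later enzymes of the tail showed smaller values. *Zmpste24*, the protease that trims prelamin A, had WT counts of 1366 and 1960 and KO counts of 1860 and 1995, with a log2 fold change of −0.14 (SE 0.194). Its libraries were 115 and 125 CPM in WT and 114 and 103 CPM in KO, so both KO libraries were below both WT libraries, that of passage 34 by less than 1 CPM. *Rce1*, the protease that removes the residues after the farnesylated cysteine, had a log2 fold change of −0.13 (SE 0.227), and its libraries overlapped. *Icmt*, the methyltransferase of the exposed cysteine, was not measured beyond 3 to 17 counts per library of the noncoding ID NR_037908.

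Proteins with a LEM domain bind BAF, a small DNA-binding protein, and through it chromatin. All 4 tested genes of this group had a negative log2 fold change, between −0.29 and −0.052, and 0 of them had an unadjusted p under 0.05. *Lemd3*, whose product Man1 also restrains Smad signalling, had WT counts of 454 and 606 and KO counts of 456 and 669, or 38.1 and 38.5 CPM against 28.0 and 34.6 CPM. Both KO libraries were lower, with a log2 fold change of −0.29 (SE 0.233, adjusted p = 0.717). *Lemd2* was also lower in both KO libraries, at 77.0 and 64.6 CPM against 83.2 and 77.8 CPM in WT (log2 fold change −0.19, SE 0.205).

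*Emd*, the gene of emerin, did not keep its order between the passages. It had 119 and 132 CPM in WT and 143 and 99.9 CPM in KO at passages 34 and 42, so the KO libraries lay above and below the WT libraries. Its log2 fold change was −0.052 (SE 0.221, 95% interval −0.54 to 0.43). *Ankle1*, a nuclease with a LEM domain, had 20.1 and 29.1 CPM in WT and 14.4 and 29.9 CPM in KO, and its log2 fold change was −0.15 (SE 0.348). *Ankle2*, which brings a phosphatase to BAF at the end of mitosis, and *Banf1*, which encodes BAF, were not tested.

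Among the other proteins of the inner membrane, the lowest value was that of *Tmem43*, on chromosome 6 from 91423697 to 91438453, whose product LUMA binds emerin and lamins. It had WT counts of 3392 and 3658 and KO counts of 2724 and 2994 at passages 34 and 42, or 259 ± 36.7 CPM against 161 ± 8.71 CPM (SD, n = 2 each). Both KO libraries were lower than both WT libraries, with a log2 fold change of −0.68 (SE 0.202, 95% interval −1.13 to −0.24, adjusted p = 0.130). Its unadjusted p of 0.00612 was the smallest of the members after *Tmpo*, and its adjusted p with the replicate block was 0.00376. *Nrm*, the gene of nurim, was lower too, at 20.1 and 20.4 CPM in WT and 14.1 and 13.7 CPM in KO. The libraries of each genotype were close together, and the log2 fold change was −0.54 (SE 0.265, adjusted p = 0.442).

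*Lbr*, the lamin B receptor and also a sterol reductase, lay the other way, at 126 and 112 CPM in WT and 132 and 137 CPM in KO (log2 fold change 0.18, SE 0.193, adjusted p = 0.813). *Tmem201*, which encodes Samp1 of the inner membrane, had 20.5 and 30.0 CPM in WT and 26.5 and 24.3 CPM in KO through 1 of its 3 IDs. The KO libraries fell between the WT libraries, and the log2 fold change of 0.0074 (SE 0.268) took the other sign under RLE size factors, in DESeq2 and without the filter on low counts.

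Of the LINC complex, only the nesprins *Syne1* and *Syne2* could be tested. *Syne2*, a giant protein of the outer membrane that reaches to actin, had WT counts of 2125 and 3176 and KO counts of 3804 and 6764 at passages 34 and 42. This is 190 ± 16.8 CPM in WT and 292 ± 82.3 CPM in KO (SD, n = 2 each), and both KO libraries were higher than both WT libraries. The log2 fold change was 0.62 (SE 0.232, 95% interval 0.11 to 1.13, adjusted p = 0.261), and the unadjusted p was 0.0218. With 1 library left out, the value ran from 0.25 without KO replicate 2 (passage 42, adjusted p = 0.670) to 0.87 without KO replicate 1 (passage 34, adjusted p = 0.0272). With the replicate block the adjusted p was 0.0174. The KO library of passage 42 stood above that of passage 34, at 350 against 233 CPM. *Syne1*, its paralog, had 91.9 and 114 CPM in WT and 85.0 and 149 CPM in KO through NM_001079686. The KO libraries lay outside the WT libraries on both sides, and the log2 fold change was 0.18 (SE 0.264, adjusted p = 0.873). *Syne3* had WT counts of 8 and 32 and KO counts of 6 and 57, too few in one library of each genotype for the test.

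Torsins are ATPases between the envelope membranes that need a cofactor in one of those membranes. *Tor1a* had a log2 fold change of −0.076 (SE 0.214) and *Tor1b* −0.25 (SE 0.202). The *Tor1b* libraries did not overlap, at 85.1 and 79.9 CPM in WT and 65.0 and 74.0 CPM in KO. *Tor1aip2*, whose product LULL1 is the torsin cofactor of the endoplasmic reticulum, was counted through 1 of 5 IDs, and the others had no count. It had 98.6 and 75.3 CPM in WT and 102 and 126 CPM in KO. Both KO libraries were higher, although by 0.049 on the log2 scale at passage 34 and by 0.74 at passage 42, and the log2 fold change was 0.39 (SE 0.219, adjusted p = 0.536). *Tor1aip1*, the gene of LAP1, had 13 counts over all 4 libraries, and its exons overlap those of *Tor1aip2* on the other strand.

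Emerin and LAP2beta bind repressors of transcription at the envelope. The deacetylase *Hdac3* had 162 and 155 CPM in WT and 168 and 194 CPM in KO, with a log2 fold change of 0.19 (SE 0.195, adjusted p = 0.801). *Gmcl1*, the mouse germ cell-less gene, was lower in both KO libraries, at 26.3 and 32.8 CPM against 35.5 and 40.1 CPM in WT (log2 fold change −0.35, SE 0.238, adjusted p = 0.634). *Zbtb7b*, a zinc finger repressor, had overlapping libraries, with 104 ± 8.60 CPM in WT and 109 ± 3.72 CPM in KO (SD, n = 2 each), and a log2 fold change of 0.069 (SE 0.195).

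The nuclear pore was represented by 10 members, all tested, with a median log2 fold change of 0.069 and 0 with an unadjusted p under 0.05. In the basket, which faces the nucleoplasm, *Tpr* had 408 and 448 CPM in WT and 427 and 503 CPM in KO, and *Nup153* 321 and 353 CPM in WT and 299 and 300 CPM in KO. Their log2 fold changes were 0.12 (SE 0.206) and −0.17 (SE 0.196). *Nup50*, a mobile basket protein, was higher in both KO libraries, at 256 and 212 CPM against 197 and 209 CPM in WT, but at passage 42 by 0.018 on the log2 scale (log2 fold change 0.20, SE 0.200). In the scaffold, *Nup93*, *Nup107* and *Nup133* had log2 fold changes of −0.12, 0.054 and −0.0030, with standard errors between 0.190 and 0.194. *Ndc1*, a membrane protein that anchors the pore, had 121 and 133 CPM in WT and 139 and 131 CPM in KO, with a log2 fold change of 0.085 (SE 0.193).

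The largest absolute fold changes after *Tmpo* belonged to the pore genes with the fewest counts. *Nup210*, a membrane glycoprotein of the pore on chromosome 6 from 90963062 to 91066823, had WT counts of 37 and 59 and KO counts of 111 and 97 at passages 34 and 42. Both KO libraries were higher, at 5.92 ± 1.27 CPM against 3.43 ± 0.458 CPM in WT (SD, n = 2 each). The log2 fold change was 0.78 (SE 0.366, 95% interval −0.025 to 1.58, adjusted p = 0.416), and the unadjusted p was 0.0562. *Nup35*, a scaffold protein on chromosome 2 from 80457393 to 80499063, had WT counts of 15 and 18 and KO counts of 48 and 19 through NM_027091. The KO library of passage 34 stood alone at 2.95 CPM, and that of passage 42, at 0.983 CPM, was below both WT libraries at 1.26 and 1.14 CPM. Its log2 fold change was 0.69 (SE 0.540, 95% interval −0.49 to 1.88, adjusted p = 0.707) and became −0.29 without the KO library of passage 34. That library also had the largest summed level of markers of other cell types, 102 CPM against 71.5 to 78.3 CPM in the others, and the part of this in both pore genes' counts was not tested. *Nup35* shares exons with *Dusp19* on its strand. Its other ID had WT counts of 0 and 4 and KO counts of 6 and 7. Reads shared by the 2 IDs were set aside, so the few counts of *Nup35* give no level for the gene.

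Levels can be compared between genes only per length, and only for the 28 members with 1 ID, whose CPM were divided by the kilobases of their longest annotated transcript. That transcript need not be the one that was counted. Some members, such as *Emd* and *Fntb*, also share exons with another gene on their strand, so the order is approximate. In WT, *Tmem43* was the highest at 89.2 ± 12.7 CPM per kb, followed by *Emd* at 78.8 ± 5.60 and *Nup93* at 73.5 ± 0.774 CPM per kb (SD, n = 2 each). *Lmnb1* had 48.5 ± 3.48 and *Lmnb2* 15.6 ± 0.499 CPM per kb, and these B-type lamins did not overlap. *Syne2*, with 21704 bases the longest, had 8.76 ± 0.772 CPM per kb in WT, next to *Fntb* at 8.46 ± 0.977 CPM per kb. *Nup210* was the lowest by far, at 0.487 ± 0.0651 CPM per kb in WT and 0.841 ± 0.180 CPM per kb in KO. Of the 27 neighbouring pairs in this order, 17 overlapped in their WT libraries, so much of the order is within the spread. In KO, *Tmem43* was at 55.6 ± 3.00 CPM per kb and *Fnta* at 39.1 ± 8.39, from 62.7 ± 1.75 CPM per kb in WT.

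**Figure D4:**
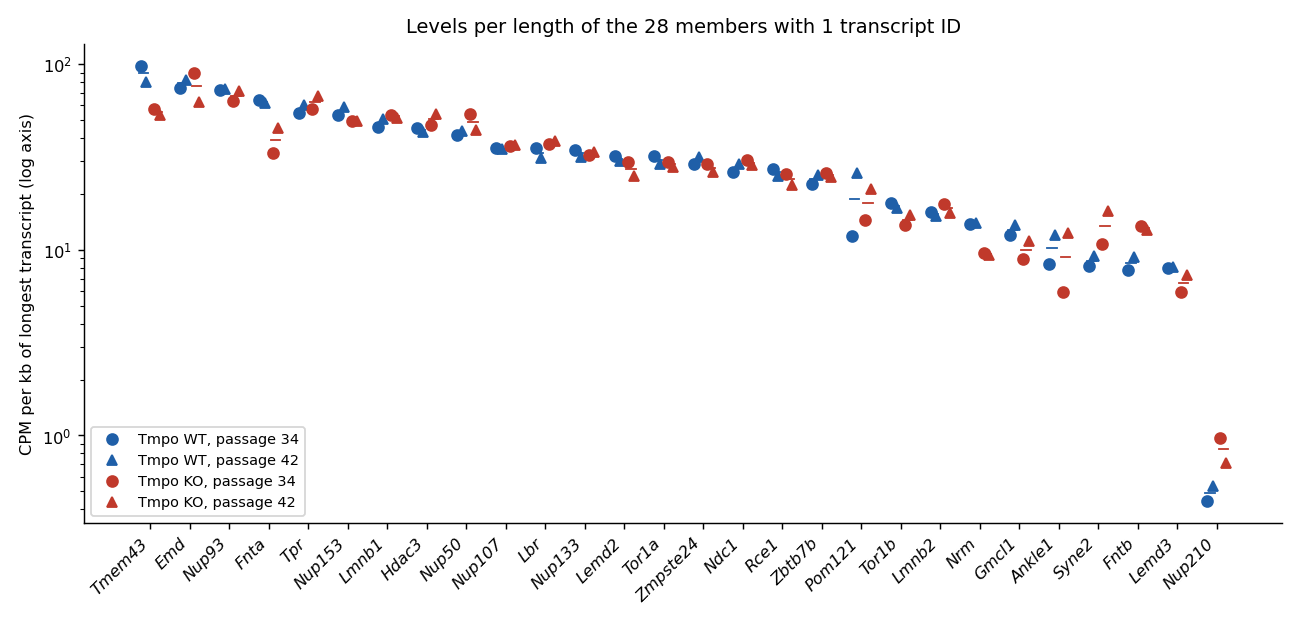
CPM per kb of the longest annotated transcript (log axis) of the 28 members with 1 transcript ID, ordered by their WT mean, 1 point per library in blue for WT and red for KO, as circles for passage 34 and triangles for passage 42, and a bar at each genotype's mean. Levels run from 89.2 CPM per kb for *Tmem43* to 0.487 CPM per kb for *Nup210* in WT.

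Within each passage there is 1 library per genotype, so the differences have no error of their own. *Tmem43* was lower in KO by a log2 difference of −0.77 at passage 34 and −0.59 at passage 42, *Nrm* by −0.51 and −0.57, and *Fnta* by −0.94 and −0.45. *Fntb* had 0.79 and 0.47, *Syne2* 0.39 and 0.79, and *Nup210* 1.10 and 0.41. The 10 members with opposite signs were *Lmna*, *Emd*, *Ankle1*, *Tmem201*, *Syne1*, *Zbtb7b*, *Pom121*, *Ndc1*, *Nup35* and *Nup133*.

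**Figure D5:**
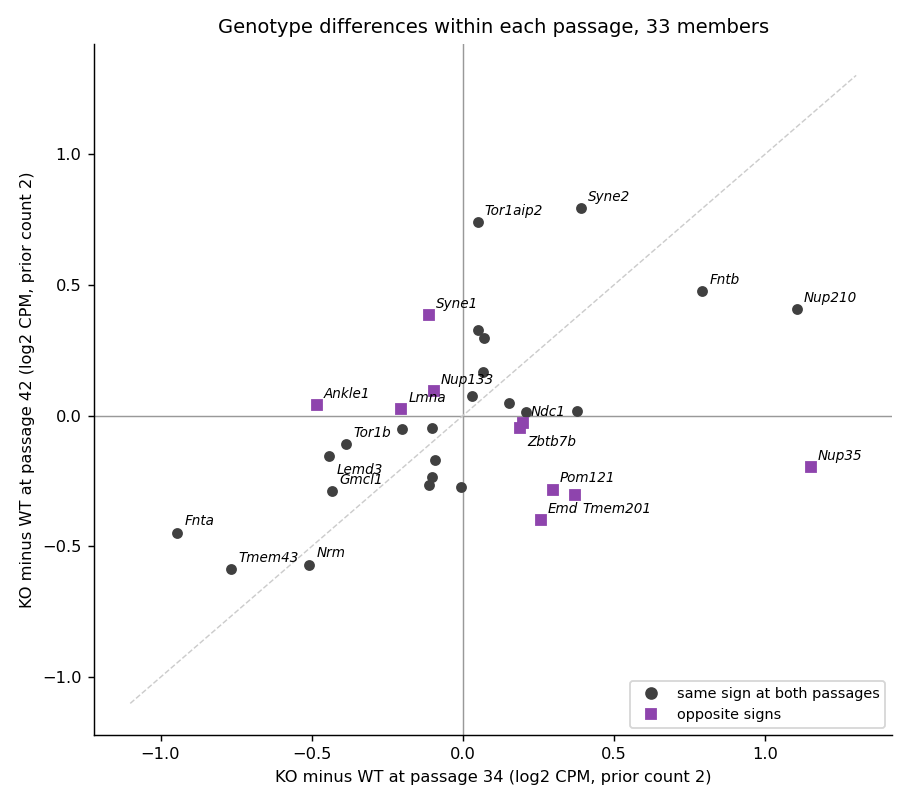
Log2 CPM of the KO library minus that of the WT library at passage 34 (horizontal) and passage 42 (vertical) for the 33 tested members other than *Tmpo*; the dashed line marks equal differences, and each axis compares 1 library per genotype. Squares mark the 10 members with opposite signs, among them *Nup35* at 1.15 and −0.20, and *Tmem43*, *Nrm* and *Fnta* lie in the lower left.

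Passage itself was compared with genotype as a block. Of the 34 members, *Pom121* was the only one called, against 2.31% of all transcripts tested. *Pom121*, a membrane protein of the pore ring on chromosome 5 from 135852011 to 135870416, had 786 and 1320 counts in WT and KO at passage 34 and 2267 and 2290 at passage 42. Both libraries of passage 42, at 144 and 118 CPM, were above both of passage 34, at 65.9 and 81.0 CPM. The log2 fold change of passage 42 against 34 was 0.84 (SE 0.191, 95% interval 0.46 to 1.21, adjusted p = 0.00210). The adjusted p was 0.114 in DESeq2 and 0.967 without the genotype block. Its exons overlap *Nsun5* on the other strand, which had a log2 fold change of 0.058 between passages (SE 0.264, adjusted p = 0.971). Between genotypes *Pom121* had a log2 fold change of −0.076 (SE 0.325). An unadjusted p under 0.05 for passage was reached by 4 of the 34 members, and by 1605 of the 13855 transcripts tested. Besides *Pom121*, these members were *Ankle1* (0.79, adjusted p = 0.104), *Syne1* (0.56, adjusted p = 0.0905) and *Syne2* (0.38, adjusted p = 0.357), all higher at passage 42 in both genotypes.

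The genes around these members were taken from 3 further lists of 56 genes, other nucleoporins, other envelope proteins and nuclear transport receptors with the Ran cycle, of which 45 were tested between genotypes. By edgeR's quasi-likelihood test, its exact test and DESeq2, 0 were called. In the first, 4 of the 45 had an unadjusted p under 0.05, against 12.8% of all transcripts tested. The median log2 fold change was 0.072 with 30 positive values. It was 0.078 for the 19 tested nucleoporins, −0.13 for the 10 envelope proteins and 0.062 for the 16 transport genes. The smallest p-values were those of *Cnep1r1*, *Tor4a* and *Rcc1*. *Cnep1r1*, the regulatory subunit of an envelope phosphatase that acts on lipin, had WT counts of 706 and 857 and KO counts of 570 and 787 (log2 fold change −0.59, SE 0.218, adjusted p = 0.256). *Tor4a*, a torsin relative, had WT counts of 390 and 660 and KO counts of 806 and 1236 (0.60, SE 0.239, adjusted p = 0.296). *Rcc1*, the exchange factor of Ran, had WT counts of 17 and 19 and KO counts of 6 and 15 (−1.16, SE 0.492, adjusted p = 0.346). It passed the filter on low counts through WT alone, at 1.43 and 1.21 CPM against 0.368 and 0.776 CPM in KO. The filter therefore favours a lower KO value for it. *Rcc1* was also counted through 1 of 2 IDs, so its few counts give no level for the gene. Between passages, *Nup188* of the inner pore ring was called, at 169 and 170 CPM at passage 34 and 272 and 294 CPM at passage 42 in WT and KO (log2 fold change 0.74, SE 0.180, adjusted p = 0.00481), although its adjusted p was 0.114 in DESeq2 and 0.967 without the genotype block.

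Because lamina and pore are taken apart and rebuilt at each division, 15 genes of proliferation were measured beside them. Of the 13 tested, 0 were called and 0 had an unadjusted p under 0.05 in edgeR's quasi-likelihood test, its exact test or DESeq2. With the replicate block, 0 were called, against 7.88% of all transcripts tested. An unadjusted p under 0.05 was then reached by 2, for which no share over all transcripts was computed. Both KO libraries were below both WT libraries for 6 of the 13 and above them for 1. Over all transcripts tested, the genotypes did not overlap for 41.9%. Log2 fold changes lay between −0.38 for *Ccnb1* and 0.43 for *Rrm2*, 11 of them negative, with a median of −0.16. *Mki67* had 1281 and 1577 CPM in WT and 1012 and 1502 CPM in KO.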

How the data were processed

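RNA-seq libraries of 2 *Tmpo* WT and 2 *Tmpo* KO imMDF samples were analysed; the study's ChIP-seq and protein data were not used here. The authors deposited raw counts for 32757 RefSeq transcript IDs. They had clipped adapters with cutadapt, aligned to mm9 with TopHat2 version 2.0.9, and counted alignments of mapping quality over 20 with htseq-count, whose strand option the sources used here do not give. The 5 lines of reads given to no transcript (63.3% to 68.6% of all reads) stayed out of library sizes and tests.

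Symbols of 32308 IDs came from a RefSeq gene table of GRCm38.p6, which served for naming alone, and positions from GENCODE M1 on NCBIM37, for 39 of the 41 members. Transcripts with at least 1 CPM in both libraries of either genotype entered a comparison with edgeR 4.0.16 in R 4.3.3 (TMM, glmQLFit, glmQLFTest, Benjamini-Hochberg adjusted p under 0.05). Standard errors are the log2 fold change divided by the square root of F. Within-passage differences are log2 CPM with a prior count of 2. The biological coefficient of variation was 21.8%, and total counts per library limit the precision of low genes. The procedure was tested on simulated data. Alternatives were RLE size factors, library totals, DESeq2 1.42.0, edgeR's exact test, counts added up by gene symbol, other filters, a replicate block, a prior count of 0.5 and each library left out.

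The members, the lists and the tests were chosen with earlier results of these data known. Named with full values are the *Tmpo* IDs, the lamins, members with an unadjusted p under 0.05, the 3 with the largest absolute fold change, and of the wider lists those called or else the 3 with the smallest p; other members are named by role. Sequences and tables were made with Python 3.11.15, pandas 2.3.3 and numpy 2.4.6, and plots with matplotlib 3.10.9.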

Additional observations from a re-analysis of the deposited data

Results flagged for a closer look

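For 10 members the KO libraries lay on opposite sides of the WT library at passages 34 and 42. Each value below is a log2 CPM difference between 1 KO and 1 WT library, and whether the passages differ was not tested, since no degrees of freedom remain for it. The largest gap was that of *Nup35*, measured with few counts through 1 of its 2 IDs, at 1.15 and −0.20. *Emd* had 0.26 and −0.40, *Tmem201* 0.37 and −0.30, and *Pom121* 0.30 and −0.28. In the other direction, *Ankle1* had −0.48 and 0.039, *Syne1* −0.11 and 0.39, *Lmna* −0.20 and 0.024, and *Nup133* −0.097 and 0.094. *Zbtb7b* had 0.19 and −0.048, and *Ndc1* 0.20 and −0.028.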

How the results depend on the processing

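*Tmpo* was called under every alternative that tested it, with a log2 fold change of −7.98 to −7.77 when 1 library was left out and −6.06 with counts summed per gene. It was not tested with at least 1 CPM in all 4 libraries, where 0 members were called. The replicate block called 4 members, *Tmpo*, *Tmem43* (−0.68, adjusted p = 0.00376), *Fnta* (−0.70, 0.00662) and *Syne2* (0.59, 0.0174), and 1092 of all transcripts. Same-numbered libraries share a passage, and their deviations from the genotype means correlated at 0.175 across the tested transcripts. Transcripts of the same libraries are no independent replicates, so this value cannot show pairing. With 1 library left out, members called were 1 to 2, adding *Syne2* without KO replicate 1 (0.87, adjusted p = 0.0272) and *Fnta* without KO replicate 2 (−0.96, 0.0131), members with an unadjusted p under 0.05 were 2 to 7 (2 without WT replicate 1), wider genes called 0 to 1 (*Tor3a* without KO replicate 1), and all transcripts called 109 (without WT replicate 2) to 1291 (without KO replicate 2), with 175 without WT replicate 1 and 842 without KO replicate 1. A lone library is then assumed to vary like the other genotype. No share of all transcripts with an unadjusted p under 0.05 was computed for these settings, so those counts are no result about the members. All transcripts called were 613 by the exact test and 740 with no filter.

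For passage, 0 members were called without the genotype block or by DESeq2; leaving out a library there leaves no residual degrees of freedom and was not run.

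Of 395 values of the other 33 fold changes under alternatives, 369 kept sign and side of the threshold, and 5 gained a call. Signs turned in 21, none of them called. These were *Tmem201* with RLE (−0.0027), DESeq2 (−0.0029) and no filter (−0.0044), *Pom121* with the replicate block (0.0034), *Nup133* with library totals (0.023), and otherwise libraries left out, with ranges of −0.26 to 0.022 for *Lmna*, −0.34 to 0.14 for *Emd*, −0.82 to 0.27 for *Ankle1*, −0.22 to 0.31 for *Tmem201*, −0.32 to 0.52 for *Syne1*, −0.15 to 0.015 for *Tor1a*, −0.047 to 0.22 for *Tpr*, −0.52 to 0.60 for *Pom121*, −0.29 to 1.25 for *Nup35*, −0.0021 to 0.080 for *Nup107* and −0.074 to 0.083 for *Nup133*. The causes were not tested. A prior count of 0.5 moved 66 of 68 within-passage differences by less than the spread between passages.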
